A study of Mus musculus with 24 samples.

Results

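The G1 cyclins and their kinases were examined in irradiated and control organoids of the mouse small intestine. The set of 9 genes comprised the D-type cyclins Ccnd1, Ccnd2 and Ccnd3, the E-type cyclins Ccne1 and Ccne2, the kinases Cdk4, Cdk6 and Cdk2, and the inhibitor gene Cdkn1b, which encodes p27. The genes were found by their symbol in the array table, which held 17 probes for 8 of the 9 genes, out of 25697 probes in all. No probe carried the symbol Cdk4, and this gene was not analysed here. Cdk2 had 4 probes, Ccnd1, Ccnd3 and Cdkn1b had 3 each, and the other 4 genes had 1 each. All 17 probes passed the detection filter, as did 15056 probes overall.

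Organoids from C57BL/6 mice were grown in medium with EGF, Noggin and R-spondin. Irradiated organoids were given a gamma-ray dose of 6 Gy on the third day from reseeding and were taken at 24, 48 or 96 h, and controls taken at the same 3 times received no radiation. Each of the 6 groups had 4 arrays, 24 in all. The comparisons ask how irradiation changed the transcripts of these genes at each time and whether that difference itself changed with time.

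Cells enter S phase by way of the G1 cyclins. D-type cyclins are made in response to growth factors and bind the kinases CDK4 and CDK6, which begin to phosphorylate the retinoblastoma protein. The E2F factors that this protein holds back then switch on the E-type cyclins and the enzymes of DNA synthesis, and cyclin E with CDK2 completes the step. The inhibitor p27 binds and blocks cyclin E with CDK2 and is destroyed through the ubiquitin ligase subunit SKP2 as cells commit to division. In the intestine, dividing cells lie in the crypts, and differentiating cells leave the cycle as they move out of them.

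Signals are Illumina BeadChip intensities, corrected for background, quantile normalized and given on the log2 scale, so that 1 unit is a 2-fold difference. Each irradiation effect is a mean difference of irradiated minus control arrays from 1 linear model over all 24 arrays (limma), with p-values adjusted over all 15056 probes (Benjamini-Hochberg, two-sided), and a change was called at an adjusted p under 0.05. A gene was counted by its brightest probe. The 8 arrays of a time shared 1 chip, with controls always in the first 4 positions, so position cannot be told apart from irradiation, and chip cannot be told apart from time. The labels do not say whether the arrays of a group came from separate cultures or mice, and the p-values measure the spread between these arrays, which may be technical. Detected probes numbered 9738 to 12941 on irradiated and 12535 to 13551 on control arrays at 24 h, 12890 to 14751 and 14014 to 14120 at 48 h, and 10971 to 13231 and 11727 to 13831 at 96 h (adjusted p = 0.342, 0.457 and 0.344, exact two-sided permutation tests). With only 70 splits per time, these tests cannot show that detection was alike. At 24 h the mean was 11469 on irradiated and 13012 on control arrays. Of the 7 intestinal epithelium markers in the table all were detected. Of the mesenchyme markers 7 of 8 were detected on no array (Col1a1, Col1a2, Col3a1, Dcn, Lum, Pdgfra and Pdgfrb), and Acta2, the eighth, was higher in irradiated organoids at 48 h by 0.87 (adjusted p = 0.0295). Immune markers were undetected for 4 of 7 (Cd3e, Csf1r, Itgam and Ptprc) and endothelial ones for 4 of 6 (Cdh5, Emcn, Kdr and Vwf), and the erythroid markers Alas2 and Hba-a1 were undetected. In RNA of whole organoids, fewer cells of a type and less RNA per cell cannot be told apart.

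After irradiation the D-type cyclins rose, Ccnd1 at each time, Ccnd2 at 48 and 96 h and Ccnd3 at 48 h, although none of these rises was called once the arrays were scaled to equal medians. By their brightest probes, Cdk2 and Ccne2 fell at 24 and 48 h and Cdkn1b at 24 h, and none of the 3 was called at 96 h. The Ccne2 calls were fragile, lost in 14 of 40 alternatives at 24 h and in 26 of 40 at 48 h. The 2 dimmer Cdkn1b probes were called lower at 48 h as well. At 24 h, 1 of the 8 genes rose (Ccnd1), 3 fell (Ccne2, Cdk2 and Cdkn1b) and 4 did not pass the test. Among all 10798 genes tested, 10.9% rose and 12% fell at that time. At 48 h, 3 rose (all 3 D-type cyclins), 2 fell (Ccne2 and Cdk2) and 3 did not pass, against 6.83% and 5.77% of all genes. At 96 h, 2 rose (Ccnd1 and Ccnd2), 0 fell and 6 did not pass, against 1.53% and 3.12% of all genes. The median log2 fold change of the 8 genes was -0.16 at 24 h, 0.06 at 48 h and 0.15 at 96 h, beside -0.04, -0.04 and 0.00 over all genes. With so few genes, these shares describe the set and test nothing about it. Counted by probe, 3 of 17 rose and 6 fell at 24 h (9.58% and 12.6% of all probes), 4 rose and 4 fell at 48 h (6.26% and 5.04%), and 3 rose and 0 fell at 96 h (1.43% and 2.78%). For 3, 5 and 2 of the 8 genes, irradiated and control values did not overlap at 24, 48 and 96 h, which was so for 28.8%, 20.5% and 7.55% of all genes.

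**Figure D1:**
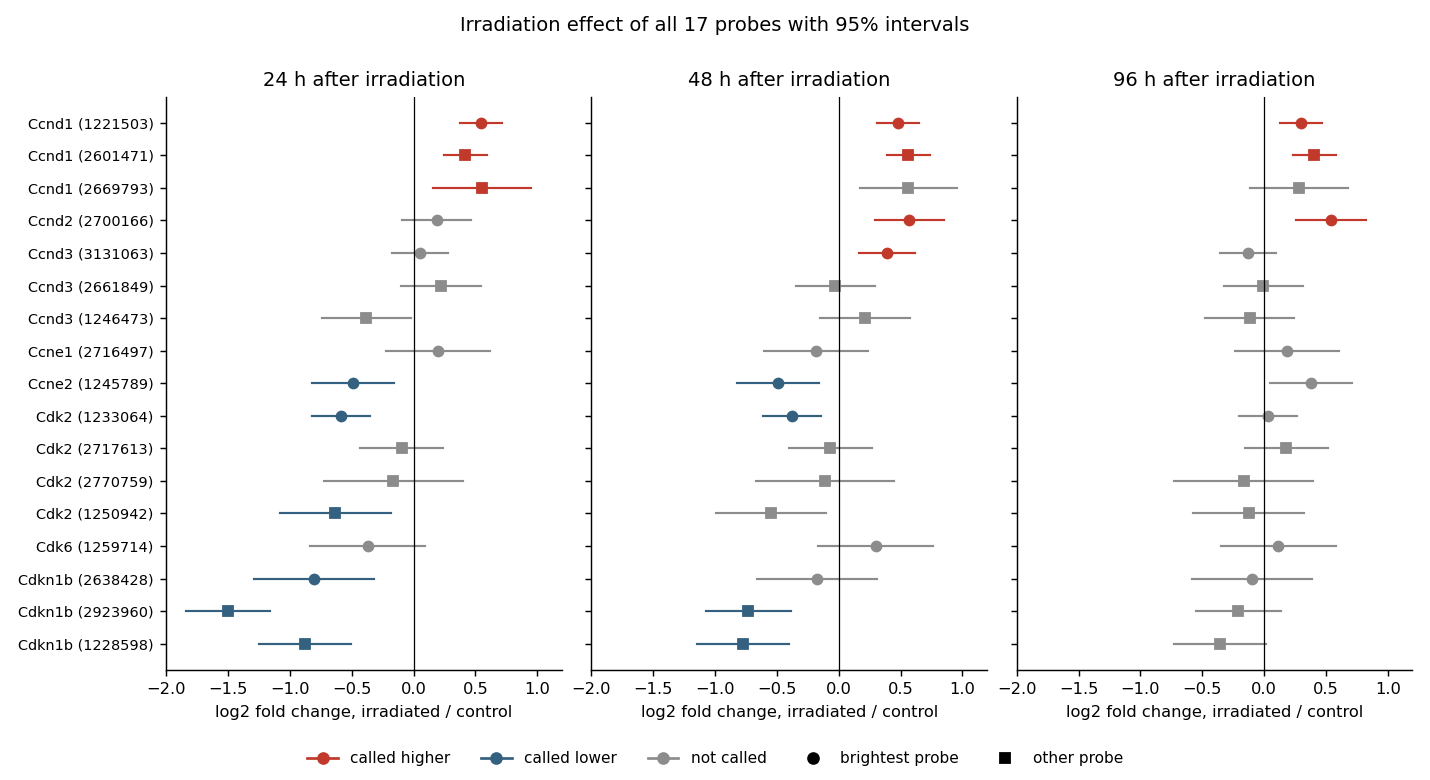
Irradiation effect (log2 fold change, irradiated over control, with its 95% interval, 4 arrays per group) of each of the 17 probes at 24, 48 and 96 h, with the brightest probe of a gene as a circle and other probes as squares, and the number part of the probe identifier in brackets. Called rises are red and called falls blue. All coloured points of the D-type cyclins lie right of 0, while those of Ccne2, Cdk2 and Cdkn1b lie left of it at 24 and 48 h.

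Ccnd1, the cyclin D1 gene, rose in irradiated organoids at all 3 times. Its brightest probe (ILMN_1221503) read 11.42, 11.41, 11.26 and 11.44 on the irradiated arrays at 24 h, against 10.83, 10.84, 10.77 and 10.90 on the control arrays. At 48 h it read 11.96, 12.06, 12.00 and 12.11 on irradiated arrays, against 11.48, 11.62, 11.58 and 11.56 on control arrays. At 96 h it read 11.53, 11.67, 11.70 and 11.74 on irradiated arrays, against 11.40, 11.42, 11.30 and 11.31 on control arrays. Every irradiated array was above every control array of its time, and the gap was narrowest at 96 h. The log2 fold change was 0.55 at 24 h (1.46-fold, SE 0.08, limma adjusted p = 3.91e-05), 0.48 at 48 h (1.39-fold, adjusted p = 0.000319) and 0.30 at 96 h (1.23-fold, adjusted p = 0.0369). No difference of the effect between times passed the test (96 h minus 24 h: -0.25, 95% interval -0.48 to -0.01, adjusted p = 0.193). A second bright probe of Ccnd1 (ILMN_2601471) rose by 0.42, 0.56 and 0.41 at 24, 48 and 96 h (adjusted p = 0.000913, 6.47e-05 and 0.00457). The third probe (ILMN_2669793), close to background, rose by 0.56 at 24 h (adjusted p = 0.04), and its differences of 0.56 at 48 h and 0.28 at 96 h did not pass (adjusted p = 0.06 and 0.504).

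The highest Ccnd1 level of the 6 groups was that of irradiated organoids at 48 h (12.03 ± 0.07, mean ± SD, n = 4), which overlapped no other group, and the lowest was that of controls at 24 h (10.84 ± 0.06). Irradiated organoids at 96 h (11.66 ± 0.09) and controls at 48 h (11.56 ± 0.06) overlapped, as did irradiated organoids at 24 h (11.38 ± 0.08) and controls at 96 h (11.36 ± 0.06). The scaling and single arrays bear on the size of these rises. Scaling each array to the same median instead of quantile normalization moved the median of all probes to -0.44, -0.18 and -0.19 at 24, 48 and 96 h, and on that scale the brightest Ccnd1 probe differed by 0.17, 0.19 and -0.01 and was called at no time (adjusted p = 0.42, 0.489 and 0.979). Relative to that shift of all probes it was higher by 0.61, 0.37 and 0.18. The 96 h call of this Ccnd1 probe was also lost without any 1 of control replicates 3 and 4 or irradiated replicates 2, 3 and 4 (adjusted p = 0.0652 to 0.116), and the 24 h call of the dim probe without any 1 of control replicates 1, 2 and 3 or irradiated replicates 1, 2 and 4 (adjusted p = 0.0624 to 0.114).

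**Figure D2:**
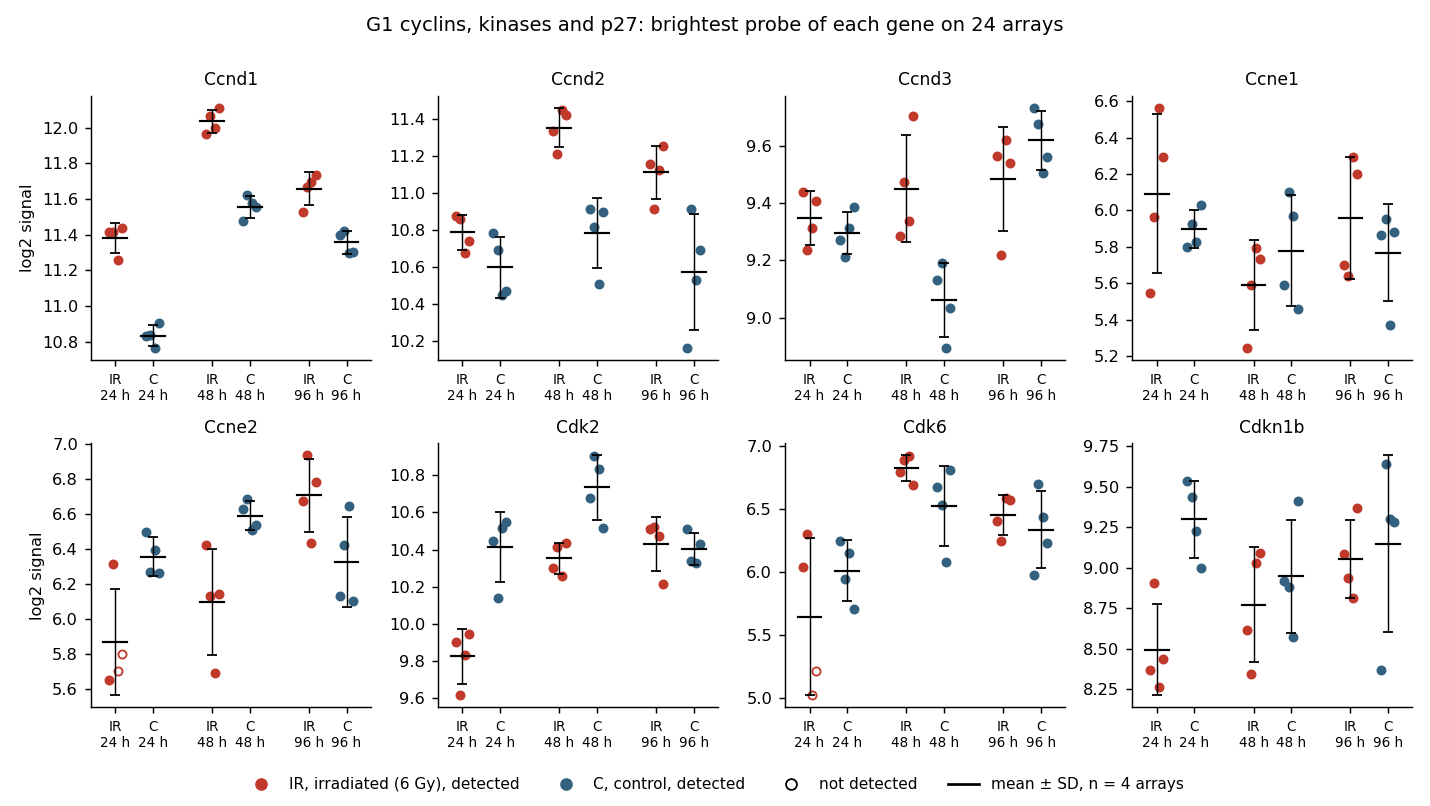
Log2 signal of the brightest probe of each of the 8 genes on all 24 arrays, with irradiated (IR, red) left of control (C, blue) at 24, 48 and 96 h, 1 point per array, open points where the probe was not detected, and bars at the mean ± SD of 4 arrays. The axes differ between panels and do not start at 0, and the panels of Ccnd1 and Cdk2 show groups that separate at 24 and 48 h while those of Ccne1 and Cdk6 overlap at each time.

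Ccnd2, the cyclin D2 gene, was higher in irradiated organoids from 48 h on. At 24 h its probe (ILMN_2700166) read 10.87, 10.86, 10.68 and 10.74 on irradiated arrays, against 10.79, 10.69, 10.45 and 10.47 on control arrays, a difference of 0.19 that did not pass (adjusted p = 0.343). At 48 h it read 11.34, 11.21, 11.45 and 11.42 on irradiated arrays, against 10.92, 10.82, 10.51 and 10.90 on control arrays. At 96 h it read 11.16, 10.91, 11.12 and 11.26 on irradiated arrays, against 10.16, 10.91, 10.53 and 10.69 on control arrays. The groups did not overlap at 48 or 96 h, though at 96 h 1 control array stood level with the lowest irradiated array to 2 decimals. Ccnd2 rose by 0.57 at 48 h (1.48-fold, SE 0.14, adjusted p = 0.00668) and by 0.54 at 96 h (1.45-fold, adjusted p = 0.0222). With equal medians the Ccnd2 differences were -0.23, 0.29 and 0.23 at 24, 48 and 96 h and none was called (adjusted p = 0.323, 0.306 and 0.503), and the 96 h call was lost without any 1 of control replicates 1 and 3 or irradiated replicates 1, 3 and 4 (adjusted p = 0.0569 to 0.082). No difference between times passed the test for Ccnd2 (48 h minus 24 h: 0.38, 95% interval -0.02 to 0.78, adjusted p = 0.491).

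Ccnd3, the cyclin D3 gene, rose by its brightest probe at 48 h alone, and its other probes did not follow. The brightest probe (ILMN_3131063) read 9.29, 9.47, 9.34 and 9.70 on irradiated arrays at 48 h, against 9.13, 9.19, 8.90 and 9.03 on control arrays. All irradiated arrays lay above all controls (log2 fold change 0.39, SE 0.11, adjusted p = 0.0227). At 24 h this probe averaged 9.35 ± 0.09 in irradiated and 9.30 ± 0.07 in control organoids (adjusted p = 0.768), and at 96 h 9.49 ± 0.18 and 9.62 ± 0.10 (adjusted p = 0.595; SD, n = 4 each). The difference of effects between 96 h and 48 h was -0.52 and missed the threshold (adjusted p = 0.0775). The second Ccnd3 probe (ILMN_2661849) differed by 0.22, -0.03 and -0.01 and the third (ILMN_1246473), above background on 1 to 2 of 4 arrays in 5 groups and 0 of 4 in irradiated organoids at 24 h, by 0.21 at 48 h and -0.12 at 96 h, with no call at any time. The mean of the 3 Ccnd3 probes gave 0.19 at 48 h (adjusted p = 0.14), and with equal medians the brightest probe gave 0.11 (adjusted p = 0.728). The 48 h call was also lost without control replicate 3 (adjusted p = 0.0877) or irradiated replicate 4 (adjusted p = 0.11).

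The 2 genes of cyclin E, the partner of CDK2, gave different results. Ccne1 was called at no time, with its probe (ILMN_2716497) dim but detected on every array. It averaged 6.09 ± 0.44 in irradiated and 5.90 ± 0.10 in control organoids at 24 h, 5.59 ± 0.25 and 5.78 ± 0.30 at 48 h, and 5.96 ± 0.34 and 5.77 ± 0.27 at 96 h (SD, n = 4 each). Irradiated and control values of Ccne1 overlapped at each time, the differences were 0.20, -0.19 and 0.19 (adjusted p = 0.524, 0.636 and 0.701), and their 95% intervals ran from -0.22 to 0.62, from -0.61 to 0.23 and from -0.23 to 0.61.

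Ccne2, the cyclin E2 gene, fell at 24 and 48 h and did not pass at 96 h, where its difference had the other sign. Its probe (ILMN_1245789) read 5.65, 6.31, 5.70 and 5.80 on irradiated arrays at 24 h, against 6.49, 6.27, 6.39 and 6.26 on control arrays. At 48 h it read 6.42, 6.13, 5.69 and 6.14 on irradiated arrays, against 6.63, 6.69, 6.50 and 6.53 on control arrays. At 96 h it read 6.67, 6.93, 6.43 and 6.78 on irradiated arrays, against 6.13, 6.42, 6.64 and 6.10 on control arrays. At 24 h 1 irradiated array reached into the control range and only 2 of 4 were above background, at 48 h all irradiated arrays lay below the controls, and at 96 h most lay above. Ccne2 fell by 0.49 at 24 h (SE 0.16, adjusted p = 0.032) and by 0.49 at 48 h (adjusted p = 0.0499), and differed by 0.38 at 96 h (adjusted p = 0.226). The effect at 96 h exceeded that at 24 h by 0.87 (SE 0.23, adjusted p = 0.0173) and that at 48 h by 0.87 (adjusted p = 0.0392). The second of these was lost without any 1 of 12 arrays (control 24 h replicate 3, irradiated 48 h replicates 2, 3 and 4, control 48 h replicates 1, 2 and 3, irradiated 96 h replicates 1, 2 and 4 and control 96 h replicates 1 and 4; adjusted p = 0.0506 to 0.0934). The 24 h call of Ccne2 was lost without any 1 of control replicates 1 and 3 or irradiated replicates 1, 3 and 4 (adjusted p = 0.0711 to 0.0952). In all, 14 of 40 alternatives lost it (adjusted p up to 0.293). Among them were cyclic loess, no background correction, detected probes per array as a covariate and leaving out the 5 arrays with the fewest detected probes. Irradiated replicates 3 and 4 of 24 h, where Ccne2 was not above background, are the 2 arrays with the fewest detected probes. The 48 h call, at the edge of the threshold, was lost on leaving out any 1 of 17 arrays (all but irradiated 24 h replicate 2, irradiated 48 h replicate 1, irradiated 96 h replicates 2 and 3 and control 96 h replicates 1, 3 and 4; adjusted p = 0.0509 to 0.212).

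Cdk2, the kinase that cyclin E activates, fell at 24 and 48 h by its brightest probe (ILMN_1233064) and was not called at 96 h. The probe read 9.90, 9.62, 9.83 and 9.95 on irradiated arrays at 24 h, against 10.44, 10.14, 10.52 and 10.55 on control arrays. At 48 h it read 10.30, 10.41, 10.26 and 10.43 on irradiated arrays, against 10.68, 10.90, 10.84 and 10.52 on control arrays. At 96 h it read 10.51, 10.52, 10.47 and 10.22 on irradiated arrays, against 10.51, 10.34, 10.33 and 10.43 on control arrays. The groups were apart at 24 and 48 h and mixed at 96 h. Cdk2 fell by 0.59 at 24 h (1.5-fold, SE 0.11, adjusted p = 0.000652) and by 0.38 at 48 h (1.30-fold, adjusted p = 0.0306), and differed by 0.03 at 96 h (95% interval -0.21 to 0.26, adjusted p = 0.933). The effect at 96 h exceeded that at 24 h by 0.62 (SE 0.16, adjusted p = 0.0169). The 24 h fall kept its call in all 41 alternatives, with values of -1.08 to -0.37. The 48 h call of Cdk2 was lost without any 1 of control replicates 2 and 3 or irradiated replicates 1 and 3 (adjusted p = 0.0693 to 0.108). The mean of the 4 Cdk2 probes fell by 0.37 at 24 h (adjusted p = 0.0166), but neither its difference of -0.28 at 48 h (adjusted p = 0.105) nor its 0.35 for 96 h minus 24 h (adjusted p = 0.153) was called.

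The other 3 Cdk2 probes are dimmer and gave a mixed picture. ILMN_1250942 fell by 0.63 at 24 h (adjusted p = 0.0391), with 1 of 4 irradiated arrays above background against 4 of 4 controls, and its difference of -0.55 at 48 h did not pass (adjusted p = 0.112). That 24 h call was lost without any 1 of control replicates 2, 3 and 4 or irradiated replicates 1, 3 and 4 (adjusted p = 0.0682 to 0.13). ILMN_2717613, detected on every array, averaged 6.73 ± 0.18 in irradiated and 6.83 ± 0.27 in control organoids at 24 h (difference -0.10, adjusted p = 0.708), and ILMN_2770759 differed by -0.16 (adjusted p = 0.705). Neither of these Cdk2 probes was called at any time. Which part of the transcript each probe reads was not analysed here.

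Cdk6, a kinase partner of the D-type cyclins, was called at no time. Its probe (ILMN_1259714) read 6.04, 6.30, 5.02 and 5.21 on irradiated arrays at 24 h, against 6.25, 5.94, 6.15 and 5.70 on control arrays. The pair of low irradiated arrays, replicates 3 and 4, did not detect it, and they are also the arrays with the fewest detected probes of all 24 (9738 and 10783). The difference was -0.37 at 24 h (SE 0.22, adjusted p = 0.256), 0.30 at 48 h (adjusted p = 0.461) and 0.11 at 96 h (adjusted p = 0.854), with 95% intervals of -0.83 to 0.10, -0.17 to 0.76 and -0.35 to 0.58. The highest Cdk6 mean was that of irradiated organoids at 48 h (6.82 ± 0.10), with controls of that time at 6.52 ± 0.32, and each neighbour in the order of the 6 groups overlapped the next.

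Cdkn1b was called lower at 24 h by all 3 of its probes, though the dimmest, at background in irradiated organoids, sets no least size of a fall. The brightest (ILMN_2638428) read 8.37, 8.90, 8.26 and 8.44 on irradiated arrays, against 9.53, 9.44, 9.22 and 9.0 on control arrays. ILMN_2923960 read 5.85, 5.27, 5.61 and 5.08 on irradiated arrays, against 6.90, 7.01, 6.88 and 7.02 on control arrays. ILMN_1228598 read 4.70, 4.64, 4.59 and 4.98 on irradiated arrays, against 5.92, 5.18, 5.48 and 5.85 on control arrays. For each of the 3 probes every irradiated array lay below every control, and the third probe was above background on 0 of 4 irradiated and 3 of 4 control arrays. The brightest probe fell by 0.80 (1.75-fold, SE 0.23, adjusted p = 0.016), and ILMN_2923960 fell by 1.5 (SE 0.17, adjusted p = 6.04e-07). It was above background on 1 of 4 irradiated arrays, so that the size of this fall rests mostly on signals at background. The difference of ILMN_1228598 passed the test (adjusted p = 0.00106), with group means of 4.73 ± 0.18 and 5.61 ± 0.34. No fold is given, since its irradiated level is only a bound. Set against the lowest detected signal on each irradiated array, the control mean gave a bound of 0.93-fold, which allows no change. The call of the brightest Cdkn1b probe was lost without control replicate 1 (adjusted p = 0.0547) or irradiated replicate 3 (adjusted p = 0.0538). That call was also lost with detected probes per array as a covariate and without the 5 arrays with the fewest detected probes (adjusted p up to 0.171). At an adjusted p under 0.01 it was lost too. The calls of the other Cdkn1b probes were kept in all 38 alternatives that tested them.

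At 48 h the Cdkn1b probes disagreed. ILMN_2923960 read 6.07, 5.93, 6.18 and 6.27 on irradiated arrays, against 6.74, 6.65, 6.85 and 7.14 on control arrays, and fell by 0.73 (1.66-fold, adjusted p = 0.0044). ILMN_1228598 was above background on 0 of 4 irradiated and 4 of 4 control arrays, and was at least 1.38-fold lower (adjusted p = 0.00514), where the bound sets the control mean against the lowest detected signal on each irradiated array. The brightest probe overlapped between groups, at 8.77 ± 0.36 in irradiated and 8.95 ± 0.35 in control organoids (difference -0.18, 95% interval -0.66 to 0.31, adjusted p = 0.711). The mean of the 3 probes gave -0.56 for Cdkn1b at 48 h (adjusted p = 0.0111). At 96 h the brightest probe and ILMN_2923960 differed by -0.10 and -0.21 and did not pass (adjusted p = 0.885 and 0.582). ILMN_1228598, above background on 0 of 4 irradiated and 2 of 4 control arrays at 96 h, did not pass either (adjusted p = 0.324), and no difference is given. Between 24 and 96 h the effect on ILMN_2923960 moved by 1.29 (SE 0.23, adjusted p = 0.000972), a size that rests on the same 24 h arrays, and that on the brightest probe by 0.71, which did not pass (adjusted p = 0.188).

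**Figure D3:**
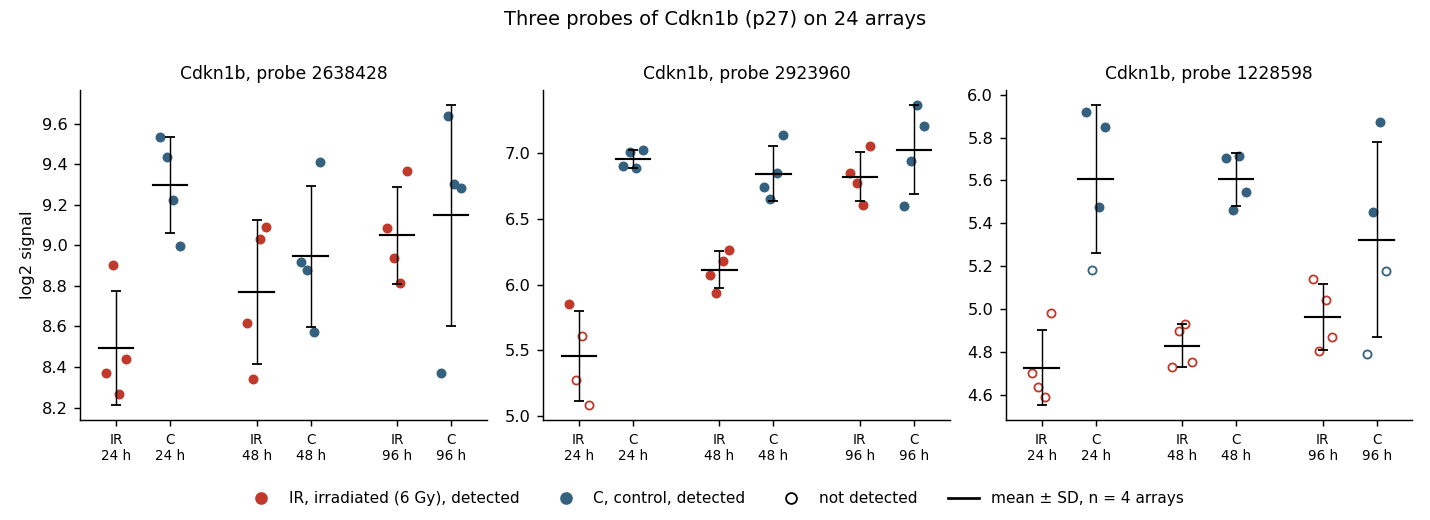
Log2 signal of the 3 Cdkn1b probes on all 24 arrays, with irradiated (IR, red) left of control (C, blue) at 24, 48 and 96 h, 1 point per array, open points where the probe was not detected, and bars at the mean ± SD of 4 arrays. The axes differ and do not start at 0. The groups separate at 24 h in each panel, and at 48 h in the panels of ILMN_2923960 and ILMN_1228598.

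Cdk2 and Cdkn1b fell together at 24 h, and their promoters are shown for this reason, from 250 bases before to 50 after the start site (RefSeq, GRCm38.p6). RefSeq windows matched 6 of the 9 genes, and no window was available for Ccnd1, Ccnd2 and Ccne2. The windows of Cdk6, Ccne1, Cdk4 and Ccnd3 are not shown. Capitals mark matches on either strand to the E2F words TTTCCCGC, TTTGGCGC, TTTCGCGC and TTTGCCGC and to CCAAT. The Cdk2 window lies at chr10:128705002-128705301 on the minus strand and that of Cdkn1b at chr6:134920151-134920450 on the plus strand.
Cdk2 promoter: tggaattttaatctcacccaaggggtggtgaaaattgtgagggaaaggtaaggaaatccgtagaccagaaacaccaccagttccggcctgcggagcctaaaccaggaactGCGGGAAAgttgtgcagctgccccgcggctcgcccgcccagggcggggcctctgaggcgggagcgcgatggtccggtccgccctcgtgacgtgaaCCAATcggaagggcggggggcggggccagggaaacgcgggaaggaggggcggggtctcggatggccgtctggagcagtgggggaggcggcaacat
Cdkn1b promoter: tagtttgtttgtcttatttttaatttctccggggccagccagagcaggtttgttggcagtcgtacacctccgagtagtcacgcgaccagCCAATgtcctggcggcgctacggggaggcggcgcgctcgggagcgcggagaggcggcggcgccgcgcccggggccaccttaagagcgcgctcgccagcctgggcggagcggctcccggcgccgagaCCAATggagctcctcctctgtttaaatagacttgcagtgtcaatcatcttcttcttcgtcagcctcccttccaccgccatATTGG
The Cdk2 window held 1 E2F word, at -140 from the start site, and 1 CCAAT box, at -45, and 6 GC boxes (GGGCGG). The Cdkn1b window held 0 E2F words, 3 CCAAT boxes, at -161, -35 and 45, and 1 GC box. Neither held the CHR word TTTGAA, the TATA word TATAAA or the FOXO word GTAAACA. Of 32851 promoter windows of this length, 2.26% held an E2F word, 37.4% CCAAT, 35.7% the GC box, 17.9% the CHR word, 13.6% the TATA word and 3.65% the FOXO word. These matches describe letters in the windows and say nothing of whether a factor was bound.

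Effects of irradiation were compared between times for all 8 genes. Between 24 and 48 h, 0 of 8 differed by the brightest probe (0.889% of all genes), between 24 and 96 h 2 differed (Ccne2 and Cdk2, against 10.6% of all genes), and between 48 and 96 h 1 did (Ccne2, against 3.06%). Each of the 3 called differences was upward, from a fall at the earlier time, and upward differences were called for 4.07% of all genes at 96 against 24 h and 0.658% at 96 against 48 h. The median of the 8 differences was 0.27 for 48 h minus 24 h, 0.42 for 96 h minus 24 h and 0.02 for 96 h minus 48 h, beside 0.00, 0.02 and 0.03 over all genes.

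Other markers moved at the same times as these genes. Of all genes, 10.9% rose and 12% fell at 24 h, 6.83% and 5.77% at 48 h, and 1.53% and 3.12% at 96 h. All 6 dividing-cell markers fell at 24 h, with a mean log2 level of 8.03 to 8.16 on irradiated and 8.58 to 8.76 on control arrays, 2 of 6 fell at 48 h (8.55 to 8.68 and 8.88 to 9.03) and 0 of 6 at 96 h (8.75 to 8.92 and 8.65 to 8.86). Crypt base stem cell markers fell for 4 of 7 and rose for 1 at 24 h, and fell for 4 at 48 h and 1 at 96 h. Enterocyte markers rose for 5 of 5 at 24 and 48 h and 1 of 5 at 96 h. Paneth cell markers rose for 6, 1 and 0 of 6 at 24, 48 and 96 h, and goblet cell markers for 4, 3 and 2 of 5. Enteroendocrine markers rose for 4, 4 and 0 of 7, and 1 of them fell at 96 h. Of the immune markers, Laptm5 fell at 48 and 96 h, by 0.94 and 0.92 (adjusted p = 9e-04 and 0.0023), and of the endothelial markers Tek rose at 24 h by 0.94 (adjusted p = 0.0248), each with part of its arrays at background. The part of these shifts in the changes of the G1 cyclins, kinases and Cdkn1b was not tested. Leaving out the 5 arrays with the fewest detected probes (irradiated replicates 3 and 4 of 24 h, irradiated replicates 3 and 4 of 96 h and control replicate 4 of 96 h), an alternative added after seeing the data, left 1 gene higher and 1 lower at 24 h, 3 higher and 1 lower at 48 h, and 0 at 96 h.

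The rest of the G1/S pathway was followed in 8 lists. Of the pocket proteins and E2F factors, 0 of 12 tested rose and 3 fell at 24 h, 2 fell at 48 h and 0 at 96 h (median -0.23, -0.15 and -0.02). Rbl1, which encodes the pocket protein p107, fell by 0.76 at 24 h (adjusted p = 0.00131), the repressor gene E2f6 by 0.51 (adjusted p = 0.0403) and the activator gene E2f2 by 0.46 (adjusted p = 0.0164). At 48 h E2f1 fell by 0.77 (adjusted p = 0.00563) and E2f2 by 0.58 (adjusted p = 0.00512), though 1 of the 2 other E2f2 probes differed by -0.04. The call of E2f6 was lost without any 1 of control replicates 1, 2 and 4 or irradiated replicates 1, 3 and 4 of 24 h (adjusted p = 0.0528 to 0.155). Rb1 itself differed by 0.15, 0.15 and -0.43 and passed at no time.

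Of the genes that E2F factors switch on for DNA synthesis, 9 of 23 fell at 24 h, 6 fell at 48 h, and 1 rose at 96 h (median -0.29, -0.26 and 0.14). Tk1, thymidine kinase, fell by 0.97 at 24 h (adjusted p = 3.42e-07) and by 0.43 at 48 h (adjusted p = 0.00766), and was the gene that rose at 96 h, by 0.37 (adjusted p = 0.0404). That last call of Tk1 was lost without any 1 of 9 arrays (control 24 h replicates 1 and 4, irradiated 48 h replicate 3, the 4 irradiated arrays of 96 h and control 96 h replicates 3 and 4; adjusted p = 0.0504 to 0.14) and in 8 other alternatives. The other Tk1 probe (ILMN_2893926) fell by 0.61 at 24 h (adjusted p = 0.00449). It was called neither at 48 h (-0.32, adjusted p = 0.18) nor at 96 h (0.49, adjusted p = 0.0657). Pold1, a subunit of DNA polymerase delta, fell by 0.60 and 0.67 at 24 and 48 h (adjusted p = 0.0056 and 0.00369), and Prim1, a primase subunit, by 0.61 at 48 h (adjusted p = 0.000534). Pola1, of DNA polymerase alpha, passed at 24 h (adjusted p = 0.0144, or 0.0606 without control replicate 4) with no irradiated array above background, and no fold is given. Its bound was 0.83-fold, which allows no change. The Pola1 call was also lost with cyclic loess, with detected probes per array as a covariate and without the 5 arrays with the fewest detected probes (adjusted p up to 0.587). The scaling bears on these counts, since with equal medians 22 of 23 fell at 24 h and the 96 h median was -0.15, and with cyclic loess 5 fell at 24 h.

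Of the S and M phase cyclins and their kinase, all 4 tested were called lower at 24 h, 1 at 48 h and 0 at 96 h (median -0.72, -0.41 and 0.02). Ccna2, cyclin A2, another partner of CDK2, fell by 0.77 at 24 h (adjusted p = 0.000532) and by 0.61 at 48 h (adjusted p = 0.00708). The mitotic kinase gene Cdc2a (now Cdk1) fell by 0.67 at 24 h by its brightest probe (adjusted p = 0.000611), while its 2 other probes differed by 0.17 and 0.35 and were not called. Ccnb2, cyclin B2, passed the test at 24 h (adjusted p = 0.00525) but was detected on no irradiated array, so no fold is given. Its bound was 0.997-fold, which allows no change. The Ccnb2 call was lost with cyclic loess, with detected probes per array as a covariate and without the 5 arrays with the fewest detected probes (adjusted p up to 0.0797). Among 16 other cyclins and CDKs, 1 rose and 1 fell at 24 h, and 1 rose at 48 and at 96 h (median -0.04, -0.09 and 0.07, and 0.04 at 24 h with cyclic loess). The gene that rose was Ccng1, a p53 target, at each time, by 1.12, 1.21 and 0.65 (adjusted p = 7.18e-07, 4.24e-07 and 0.00236). The 96 h call of Ccng1 was lost with equal medians (0.36, adjusted p = 0.297), with the arrays of 96 h alone (adjusted p = 0.113) and without the 5 arrays with the fewest detected probes (adjusted p = 0.0977), and 1 of its 2 other probes was not called at 96 h (0.39, adjusted p = 0.0607). Ccnl1, an RNA-processing cyclin, fell by 0.44 at 24 h (adjusted p = 0.03), a call lost without any 1 of control replicates 1, 2 and 3 or irradiated replicate 3 (adjusted p = 0.0572 to 0.149).

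The other CDK inhibitors split by gene. Of 5 tested, 2 rose and 2 fell at both 24 and 48 h, and 0 passed at 96 h. Cdkn1a, which encodes p21, rose by 1.13 and 1.28 (adjusted p = 3.55e-07 and 1.29e-07). Cdkn2b, an inhibitor of CDK4 and CDK6, rose by 0.56 at 48 h (adjusted p = 0.000174), though by 0.27 with equal medians, which was not called. Cdkn2c and Cdkn2d, of the same INK4 family, fell together at 24 h, Cdkn2c by 1.04 (adjusted p = 3.63e-06) and Cdkn2d by 0.73 (adjusted p = 0.000168), and Cdkn2c fell by 0.74 at 48 h (adjusted p = 0.000435). Cdkn2c was above background on 2 of 4 irradiated arrays at 24 h, so that the size of that fall rests in part on signals at background. Cdkn1b thus lay with Cdkn2c and Cdkn2d among the inhibitor genes that fell at 24 h.

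Of the CDK activators and phosphatases, 4 of 8 fell at 24 h and 0 at the later times (median -0.52, -0.11 and -0.05). The phosphatase genes Cdc25c and Cdc25b fell by 1.51 (adjusted p = 0.000949) and 0.89 (adjusted p = 0.0139), and Cdk7, the CDK-activating kinase, fell by 0.61 (adjusted p = 0.0109). Cdc25c was above background on 2 and Cdc25b on 1 of 4 irradiated arrays. With cyclic loess 1 of the 8 fell, and the Cdc25b call was lost without control replicate 4 (adjusted p = 0.0532). Among 18 genes for the turnover of G1 cyclins and p27, 1 rose and 4 fell at 24 h, 1 fell at 48 h and 0 at 96 h (median -0.13, -0.03 and 0.00). Skp2, which marks p27 for destruction, fell by 0.61 at 24 h (adjusted p = 0.0181), with 1 of its 2 other probes also called (-0.69) and the other not (-0.21). The Skp2 call was lost without control replicate 1 or 4 or irradiated replicate 3 (adjusted p = 0.0551 to 0.0652). Usp2, a deubiquitinase for cyclin D1, was detected on no irradiated array and was at least 1.14-fold lower at 24 h (adjusted p = 0.00536). Cryab, a chaperone that takes part in cyclin D1 turnover, rose by 1.01 (adjusted p = 0.00442). At 48 h Cks2, a CDK-binding protein gene, fell by 0.46 (adjusted p = 0.0197), a call lost without any 1 of control replicates 1 and 4 or irradiated replicate 4 (adjusted p = 0.0504 to 0.0889).

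Of 17 genes upstream of cyclin D and p27 transcription, 2 rose and 2 fell at 24 h, 3 rose and 3 fell at 48 h, and 1 fell at 96 h (median -0.17, 0.03 and -0.17). The 24 h counts were near the shares of all genes (10.9% rose and 12% fell). Egr1, an early growth response factor, rose by 0.89 at 24 h (adjusted p = 3.75e-06) and by 1.30 at 48 h (adjusted p = 3.49e-08), and Fos, a subunit of AP-1, rose by 1.29 at 48 h (adjusted p = 0.000124). Mycn fell by 1.18 at 24 h and by 0.87 at 48 h (adjusted p = 4.48e-05 and 0.00201), and at 96 h, where no irradiated array detected it, was at least 1.33-fold lower (adjusted p = 0.000556). Mycn was above background on only 1 of 4 irradiated arrays at 24 h and 2 of 4 at 48 h, so that the sizes of these falls rest in part on signals at background. Its relative Mycl1 fell by 1.18 at 24 h (adjusted p = 7.16e-06). Myc differed by 0.02, 0.17 and -0.02 and passed at no time. With equal medians 0 rose and 10 fell at 24 h, and Egr1 differed by 0.40 and was not called.

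**Figure D4:**
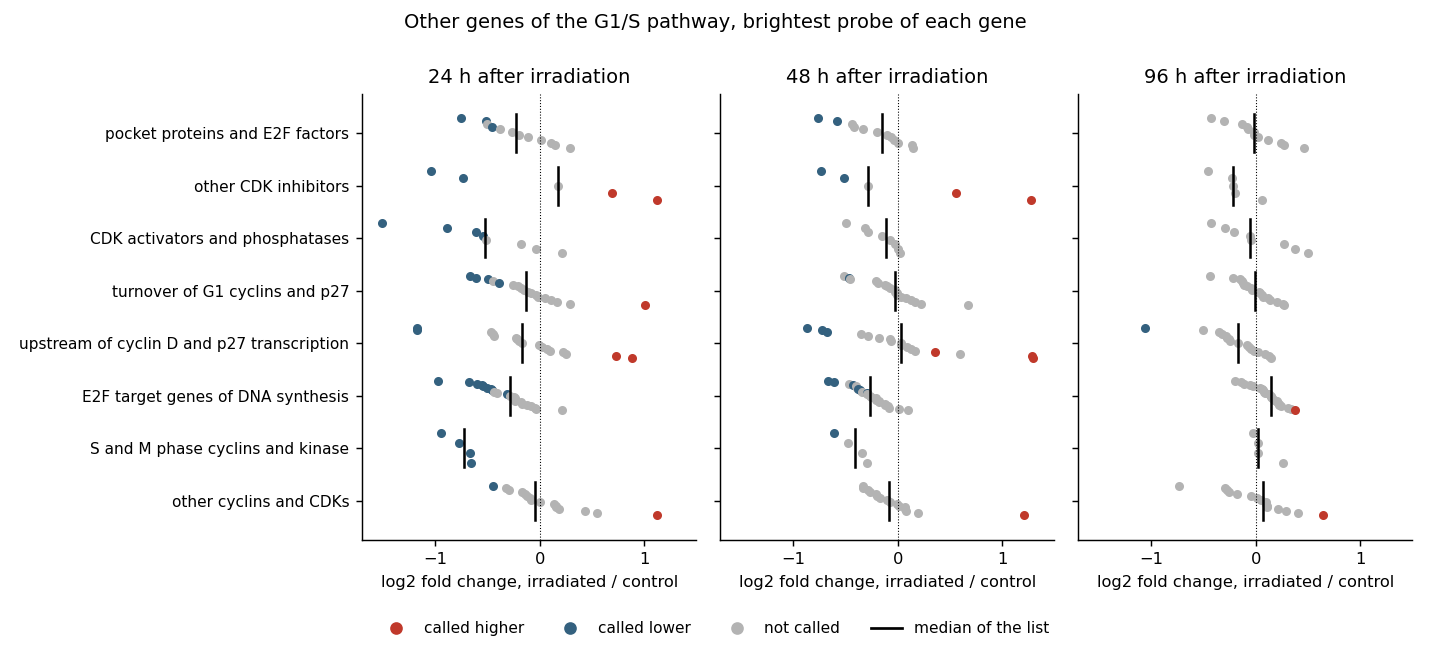
Log2 fold change (irradiated over control, brightest probe of each gene) of the tested genes of the 8 pathway lists at 24, 48 and 96 h, 1 point per gene, spread vertically within a list for legibility. Red points are called rises, blue called falls and grey not called, and a black bar marks the median of each list. The blue points of the E2F target genes and of the S and M phase cyclins lie left of 0 at 24 h, and few coloured points remain at 96 h.

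The genes whose signals ran most like those of the called genes over the 24 arrays were found by Pearson's r, as a description, since the arrays share chips, treatment and normalization. Nearest to Ccnd1 were Anxa1 (r = 0.987), which encodes annexin A1, the chloride channel gene Ano1 (r = 0.953) and the BCL2 family gene Bok (r = 0.949). Nearest to Ccnd2 were Epb4.1l2 (r = 0.839), the enteroendocrine granule gene Chga (r = 0.834) and Adss (r = 0.832). Cdk2 ran closest to the DNA ligase gene Lig1 (r = 0.928), Hnrnpa2b1 (r = 0.918) and Shcbp1 (r = 0.917). Nearest to Cdkn1b were Pdcd4 (r = 0.896), an inhibitor of translation, Rgmb (r = 0.893) and Cdca8 (r = 0.879), a subunit of the mitotic chromosomal passenger complex. Ccne2 was nearest to Josd3 (r = 0.813), the mitochondrial ribosome gene Mrps22 (r = 0.798) and Taf1d (r = 0.796), and those near to Ccnd3 included the goblet cell gene Spink4 (r = 0.687) and the Paneth cell defensin gene Defcr21 (r = 0.676). Ccnd1 and Anxa1 were both higher in irradiated organoids at each time, Anxa1 by 1.88, 1.42 and 1.12.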

How the data were processed

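RNA of 24 organoid samples was extracted with the Isolate II kit and labelled as biotinylated cDNA with Nugen kits, per the labels' protocols. The authors deposited mean bead signals as linear intensity values, neither normalized nor background subtracted as the values show, with a detection p-value per probe and array, per the file headers. Their second deposited table of processed intensity values, taken from the values as quantile normalized, served as an alternative. The sources used here do not name the authors' software.

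Signals were processed with neqc of limma 3.58.1 (R 4.3.3, data.table package 1.17.8): normexp background from the detection p-values, offset 16, quantile normalization, log2. Probes detected at p under 0.05 on at least 4 arrays were fitted with 1 mean per group, with 18 residual degrees of freedom and 4.21 from the prior, whose SD was 0.22. The median standard error of an irradiation effect was 0.18, and the number of arrays limits the precision. Arrays of a group correlated at 0.954 to 0.994.

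The members, lists and tests were chosen with earlier results of these data known. All probes of the genes are named, as are up to 3 called genes per pathway list and time with the largest change, and 3 nearest genes by r per called gene, of which 1 is not reported here. Rb1 and Myc were named after their values were seen, as were Acta2, Laptm5 and Tek. Gene symbols are those of the array. The test was checked on simulated data. The main fit was unpaired, since the labels do not say whether equal replicate numbers pair the samples. Of 12 same-numbered pairs of deviations, 7 correlated over 0.1 (range -0.42 to 0.46). In 6 of the 12, the irradiated array correlated best with the control of its own number. Whether the samples are paired thus stays unknown, and a fit with replicate blocks is among the alternatives below.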

Additional observations from a re-analysis of the deposited data

Results flagged for a closer look

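In 4 of 102 groups of 4 arrays, 1 array stood apart from the other 3 by Dixon's test, where chance gives about 1 in 20. Irradiated 24 h replicate 3 read 11.26 for the brightest probe of Ccnd1 (others 11.41 to 11.44). Irradiated 96 h replicate 3 read 7.56 for the Ccnd3 probe ILMN_2661849 (others 7.25 to 7.30), and irradiated 96 h replicate 4 read 10.22 for the brightest Cdk2 probe (others 10.47 to 10.52). Control 96 h replicate 3 read 5.37 for Ccne1 (others 5.86 to 5.95).

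The irradiation effect differed between times by the test of the difference in 4 cases. For Ccne2 it was higher at 96 h than at 24 h by 0.87 (adjusted p = 0.0173) and than at 48 h by 0.87 (adjusted p = 0.0392). For Cdk2, by its brightest probe, it was higher at 96 h than at 24 h by 0.62 (adjusted p = 0.0169), and for the Cdkn1b probe ILMN_2923960 by 1.29 (adjusted p = 0.000972).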

How the results depend on the processing

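Each result was recomputed under 41 alternatives, 24 of which leave out 1 array. Of the 8 genes, the main counts were 1 higher and 3 lower at 24 h, 3 and 2 at 48 h, 2 and 0 at 96 h, and 2 and 1 with effects that differ between 96 h and 24 or 48 h. Leaving out 1 array gave 1 higher and 1 to 3 lower at 24 h, 2 to 3 higher and 0 to 2 lower at 48 h, 0 to 2 higher and 0 lower at 96 h, 0 between 24 and 48 h, 2 between 24 and 96 h and 0 to 1 between 48 and 96 h. Median scaling left 0 higher at 24, 48 and 96 h and 0 differences between 96 h and either earlier time. It also turned the sign of the brightest Ccnd1 probe at 96 h (-0.011, adjusted p = 0.979) and of the brightest Ccnd3 probe at 24 h (-0.48, adjusted p = 0.0283), and it shifted all probes down by 0.44 at 24 h. The count lower at 48 h was 1 with no background correction, the authors' processed values, all probes, probes detected on all 24 arrays, a trended robust variance and the replicate block, and 0 with cyclic loess, with the arrays of 1 time alone and at an adjusted p under 0.01. The count lower at 24 h was 1 with detected probes per array as a covariate, which gave 1 higher at 96 h, and 1 at an adjusted p under 0.01. The count higher at 96 h was 0 with the arrays of 1 time, array weights, the replicate block and an adjusted p under 0.01. Effects that differ between 96 and 24 h numbered 1 with cyclic loess and with probes detected on all 24 arrays, and 0 at the stricter threshold. Those between 96 and 48 h numbered 2 with no background correction, an offset of 50 and the authors' processed values, and 0 with the arrays of the times compared, array weights, the replicate block and the stricter threshold. Without the 5 arrays with the fewest detected probes, 1 gene was lower at 24 h and 1 at 48 h, 0 were higher at 96 h, and effects differed for 1 gene between 96 and 24 h and 0 between 96 and 48 h. The replicate block fit lost the calls of the brightest probes of Ccnd1 at 96 h (adjusted p = 0.121), Ccnd2 at 96 h (0.0663), Ccnd3 at 48 h (0.0558) and Ccne2 at 24 h (0.0553), at 48 h (0.0877) and for 96 h minus 48 h (0.0909), and called the dim Ccnd1 probe ILMN_2669793 at 48 h (0.048). Of all called probes 43.3% were higher at 24 h, 55.4% at 48 h and 34% at 96 h, beside 7.58%, 33.4% and 11.3% with median scaling. At 24 h the share was 66.5% with cyclic loess, 54.7% with the covariate and 57.2% without the 5 arrays, and at 48 h it was 66.5% at the stricter threshold. The causes of these shifts were not tested. Signals near background limit Ccne2, Cdk6, and the dimmer probes of Ccnd1, Ccnd3, Cdk2 and Cdkn1b.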
